A study of Mus musculus with 51 samples.

Results

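Normal columnar epithelium of the mouse gut was set against normal columnar epithelium of the stomach across all 52636 genes of the deposited count table. The comparison rests on 4 of the 51 bulk RNA-seq libraries of the series, 2 labelled gut and 2 labelled stomach, and they were picked by their labels alone. All 4 came from mice of mixed genetic background that carry Krt8YFP, a yellow fluorescent reporter of keratin 8 whose construct the labels do not describe, and in both tissues the cells were sorted on YFP. The labels state neither the segment of the gut, the region of the stomach, the age nor the sex of the mice, and nothing says that the 2 libraries of a tissue came from separate animals, so p-values measure the spread between these libraries, which may be technical. The rest of the series is oesophagus, normal and carrying an active SmoM2 allele, embryonic oesophagus, and the junction of oesophagus and stomach. From it, 4 libraries of the columnar part of the junction are used here as a further normal columnar tissue. They too are Krt8YFP, sorted on YFP and on high EpCam.

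Gut and stomach share a simple columnar lining of endodermal origin that is renewed throughout life, and the organs divide the work of digestion between them. In the stomach, pit cells coat the surface with MUC5AC mucin, trefoil and gastrokine proteins, while the glands below hold neck cells with MUC6, acid-pumping parietal cells and chief cells that store pepsinogen. In the intestine, absorptive cells with a brush border complete digestion and take up sugars, peptides and lipids, goblet cells secrete MUC2, Paneth cells secrete antimicrobial peptides, and the homeobox factors CDX1 and CDX2 hold intestinal identity.

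The gut libraries held 2805103 and 3632293 counts and the stomach libraries 7625065 and 3192411, and 13380 genes had enough counts to be tested. Levels are in CPM, a gene's counts scaled to the library's total, and log2 fold changes are gut minus stomach after TMM scaling, with a standard error from edgeR's quasi-likelihood test. Adjusted p-values are Benjamini-Hochberg values over the 13380 genes tested, and a gene under 0.05 was called. Of the 13380 genes, 2398 were called, which is 17.9%, with 1435 higher in gut (10.7%) and 963 lower in gut (7.20%). All but 6 of the called genes differed by a factor of 2 or more, and 1737 by a factor of 4 or more. The median log2 fold change over all genes tested was 0.022. A gene with counts in 1 tissue alone passed the filter on low counts through that tissue. For such a gene, in any list below, a call in the other direction was hardly open. The shares of 10.7% and 7.20% are those to set beside the counts of each list. Where a group had no count of a gene, the fold is a lower bound set by 3 counts over that group, 0.466 CPM in gut and 0.277 CPM in stomach. For 1 to 3 counts a ratio, gut over stomach, is given with its 95% counting interval, which covers counting error only. Bounds and ratios use library totals without TMM scaling, unlike the log2 fold changes. The TMM factors were 0.787 and 1.010 in gut, against 1.211 and 1.039 in stomach. On the TMM scale, bounds for genes higher in stomach would be smaller and those for genes higher in gut larger.

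**Figure D1:**
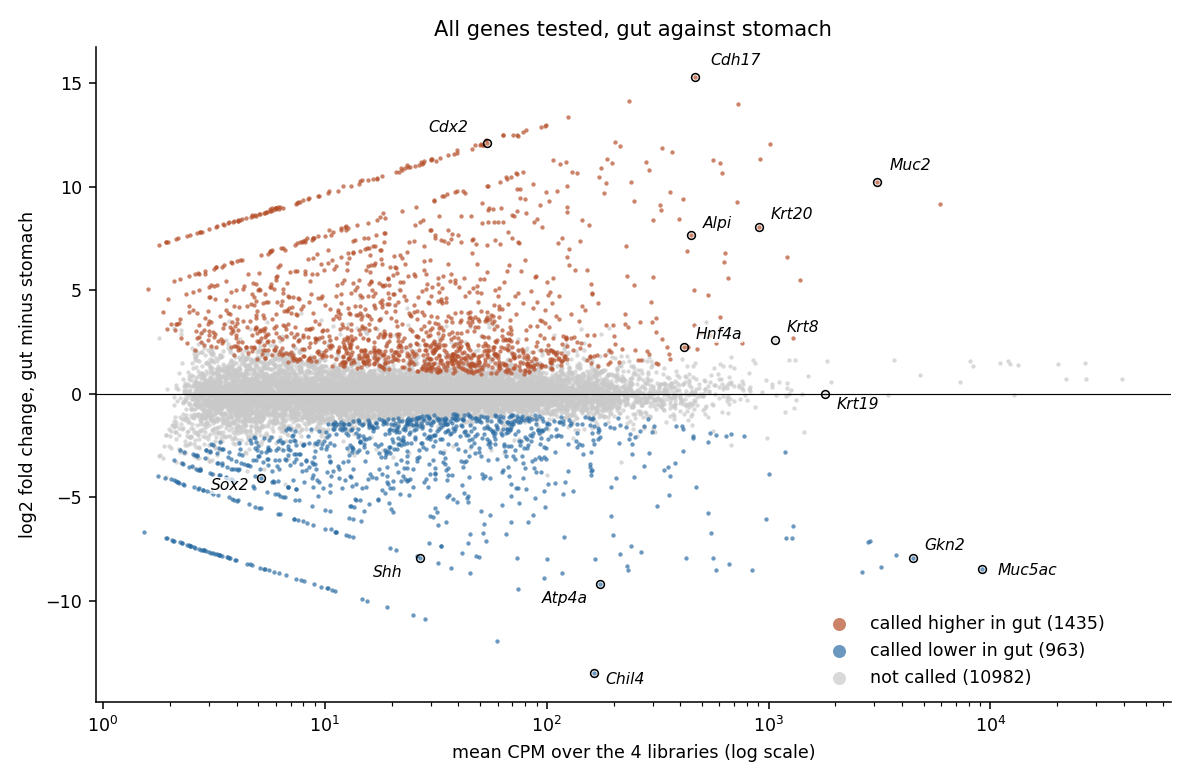
Each point is 1 of the 13380 genes tested, with its mean CPM over the 4 libraries on a log axis and its log2 fold change, gut minus stomach, on the vertical axis; 1435 genes called higher in gut lie above 0 and 963 called lower in gut lie below it. The slanted rows at the far top and bottom are genes with few or no counts in 1 tissue, whose fitted fold depends on the prior count.

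The libraries of a tissue did not lie equally close together. The biological coefficient of variation was 0.406 between the gut libraries and 0.192 between the stomach libraries, and 21.4% of genes lay more than 2-fold apart in gut, against 5.53% in stomach. Mitochondrial genes took 13.5% and 19.2% of counts in gut 1 and gut 2, against 4.67% and 9.51% in stomach 1 and stomach 2. Leaving out a stomach library, which leaves that tissue with 1 library assumed to vary like the gut, brought the calls down to 698 without stomach 1 and 461 without stomach 2, while without gut 1 and without gut 2 there were 3735 and 4776. No called gene turned direction in any of these. Of the 133 named genes, 38 lost their call without stomach 1, 51 without stomach 2 and 1 without gut 2. In bulk RNA, fewer cells of a type and less RNA per cell cannot be told apart, which holds for every cell-type marker below. Gene lists by cell type and function describe the differences, and genes named beyond 50 anchor genes, the 3 calls of smallest p in each list and the 12 largest changes in each direction were picked after their values were seen.

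Transcription factors of intestinal identity were present in gut and listed at 0 in both stomach libraries, whereas most of the shared endodermal factors were read in both tissues. Of 29 listed factors of endoderm, all tested, 14 were higher in gut, 3 were lower and 12 were not called. Without stomach 1, 9 of the higher calls remained, and without stomach 2, 6 did. Cdx2 (chr5:147300805-147307270, GRCm38) had 90.2 and 124 CPM in gut, against 0 and 0 CPM in stomach, at least 394-fold higher in gut (adjusted p = 0.00108). Cdx1, its close relative, had 33.9 and 49.8 CPM in gut, against 0 and 0 CPM in stomach, at least 155-fold higher (adjusted p = 0.00128). Isx, an intestine-specific homeobox gene that represses vitamin A uptake genes, had 113 and 89.5 CPM in gut, against 0 and 0 CPM in stomach, at least 360.2-fold higher (adjusted p = 0.00129). In each of these 3 genes the gut libraries lay close together and far above the stomach libraries. Outside the gut, Cdx2 had at most 0.524 CPM in any library of the series except 1 of the 2 embryonic oesophagus libraries, which had 41.9 CPM.

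The HNF4 nuclear receptors, which drive enterocyte genes, were higher in gut but not missing from stomach. Hnf4a had 784 and 522 CPM in gut, against 203 and 154 CPM in stomach (log2 fold change 2.26 ± 0.45, adjusted p = 0.0195). Its paralog Hnf4g differed more, with 211 and 222 CPM in gut, against 11.4 and 9.08 CPM in stomach (log2 fold change 4.74 ± 0.34, adjusted p = 0.0011). Neither pair of groups overlapped. Maf, a leucine zipper factor, had 101 and 81.2 CPM in gut, against 0.525 and 0.94 CPM in stomach, and the vitamin D receptor Vdr had 102 and 213 CPM in gut, against 1.97 and 2.51 CPM in stomach; both were called higher in gut. Nr5a2, Onecut2, Creb3l3, Prdm1, Nr1h4 and Nr1i2 were also called higher in gut.

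The pioneer factors Foxa1 and Foxa2 and the zinc finger factor Gata5 were lower in gut. Foxa2 had 3.92 and 3.85 CPM in gut, against 67.1 and 50.4 CPM in stomach (log2 fold change -3.58 ± 0.33, adjusted p = 0.00174), and Foxa1 had 53.8 and 52.9 CPM in gut, against 325 and 260.3 CPM in stomach (log2 fold change -2.10 ± 0.32, adjusted p = 0.00755). Gata5 had 36 and 52 CPM in gut, against 131 and 114 CPM in stomach (log2 fold change -1.16 ± 0.26, adjusted p = 0.0311). Gata4 and Gata6, of the same family as Gata5, were not called: Gata4 had 181 and 123 CPM in gut, against 472 and 392 CPM in stomach (adjusted p = 0.116) and Gata6 had 88.8 and 71.9 CPM in gut, against 172 and 142 CPM in stomach (adjusted p = 0.279), with the gut libraries below the stomach libraries in each.

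Foregut factors were mostly lower in gut. Of 15 listed, 9 were tested, 7 were lower in gut and 1, Tbx3, was higher, and 3 and 1 of the lower calls remained without stomach 1 and without stomach 2. Sox2, the SOX factor of oesophagus and stomach, had 0 and 0.826 CPM in gut, against 11.7 and 8.14 CPM in stomach, a ratio of 0.0438 with an interval of 0.00891 to 0.131 (adjusted p = 0.0182). Sox21 had 0 and 0.826 CPM in gut, against 109 and 66.7 CPM in stomach, a ratio of 0.00484 with an interval of 0.000997 to 0.0142, and was called lower in gut (adjusted p = 0.0016). Nkx6-3, a homeobox gene of the gastric antrum, had 0 and 1.38 CPM in gut, against 28.6 and 7.83 CPM in stomach (log2 fold change -4.24 ± 0.97, adjusted p = 0.0317). Foxp2 stood at 0 and 0.275 CPM in gut, against 13.6 and 16.3 CPM in stomach. Tbx3, a T-box factor, ran against the list at 188 and 104 CPM in gut, against 0.131 and 0.94 CPM in stomach (log2 fold change 8.84 ± 0.87, adjusted p = 0.0021). In the other 12 groups of the series Sox2 had between 23.8 and 163 CPM in every library. Among 39 listed Hox genes only Hoxa3 had enough counts for a test, at 5.35 and 6.61 CPM in gut, against 0 and 0 CPM in stomach, and 27.1% of its exon bases overlap another gene.

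**Figure D2:**
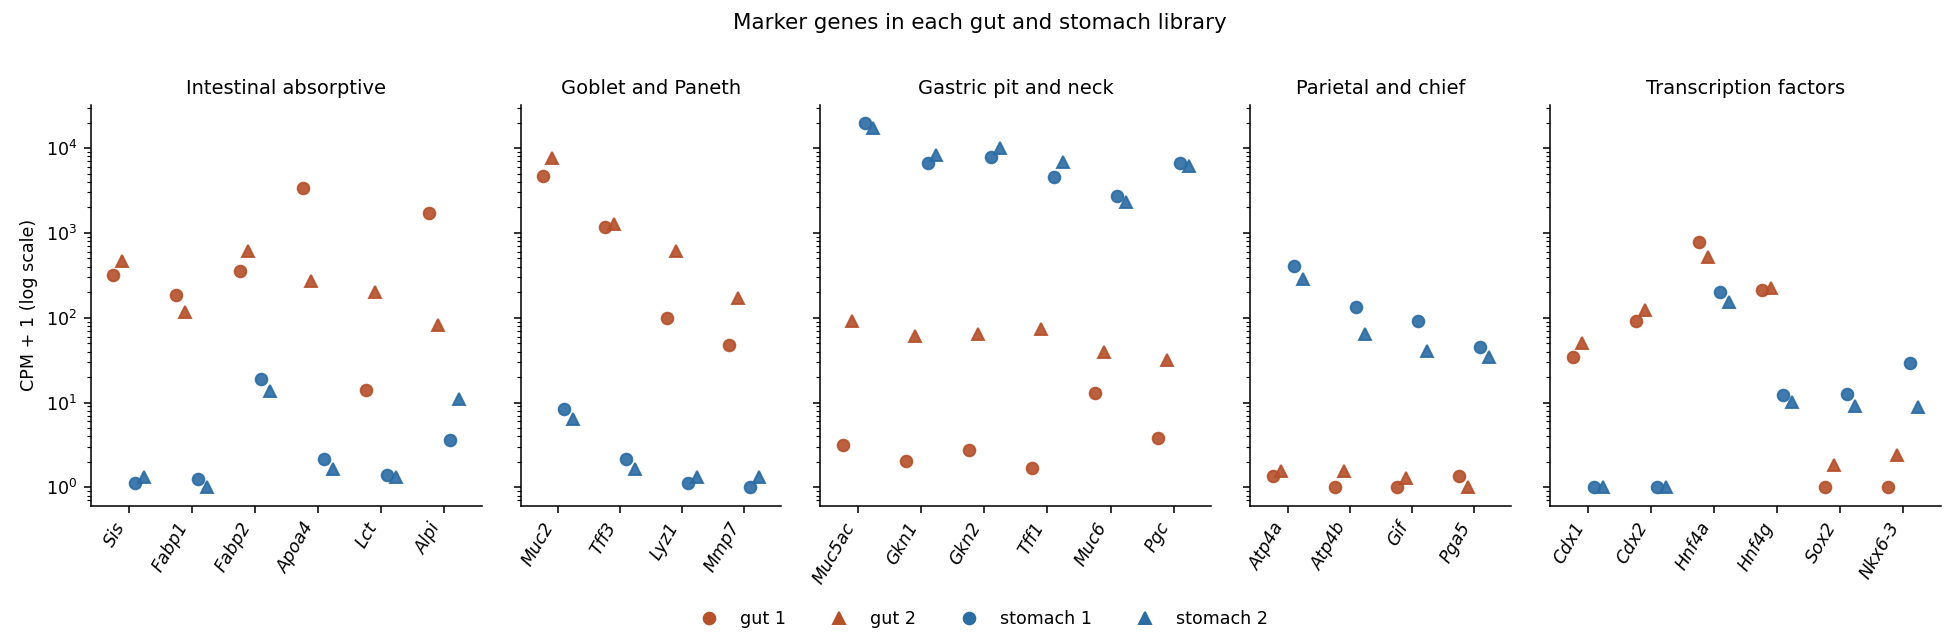
Each point is the CPM plus 1 of a marker gene in 1 library on a log axis, with the gut libraries in red left of the stomach libraries in blue, circles for replicate 1 and triangles for replicate 2. Intestinal markers are high in both gut libraries and low in stomach, gastric markers are low in gut and high in stomach, and gut 2 lies above gut 1 for pit and neck genes.

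Genes of the absorptive cell were higher in gut almost throughout. Of 36 listed genes 33 were tested and 32 were higher in gut, against 10.7% of all genes tested, and 1, Cyp2c65, was lower. The median log2 fold change of the tested members was 7.92, or 7.65 with genes at 0 in 1 tissue set at their bound. Their summed level was 23278 and 10714 CPM in gut, against 715 and 528 CPM in stomach. Of the 32 higher calls, 21 remained without stomach 1 and 14 without stomach 2.

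Sis, the sucrase-isomaltase of the brush border, lies at chr3:72888557-72967863 on the minus strand (GRCm38) and had 320.5 and 468 CPM in gut, against 0.131 and 0.313 CPM in stomach, a ratio of 2183 with an interval of 604 to 18034 (adjusted p = 0.00108). Lct, the lactase gene at chr1:128284756-128328318 on the minus strand, had 13.2 and 203 CPM in gut, against 0.393 and 0.313 CPM in stomach (log2 fold change 8.32 ± 1.49, adjusted p = 0.0138), and its gut libraries were 15.4-fold apart. Apoa4, an apolipoprotein of chylomicrons at chr9:46240696-46243459 on the plus strand, had 3372 and 271 CPM in gut, against 1.18 and 0.626 CPM in stomach (log2 fold change 11.35 ± 1.75, adjusted p = 0.00821), and 69.8% of its exon bases overlap an annotated neighbour. Lct was higher in gut 2 and Apoa4 in gut 1, while Sis was of like level in both.

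The bases before the start of Sis and Lct are shown because Cdx2, whose product is known to bind enterocyte promoters, stood among the factors higher in gut. Each line gives the 250 bases before the first listed RefSeq start, 5′ to 3′ on the gene's strand (GRCm38.p6; Sis chr3:72967864-72968113, Lct chr1:128328319-128328568). Capitals mark matches on either strand to TTTATG for CDX and to AGATAA or AGATAG or TGATAA or TGATAG for GATA factors.
Sis: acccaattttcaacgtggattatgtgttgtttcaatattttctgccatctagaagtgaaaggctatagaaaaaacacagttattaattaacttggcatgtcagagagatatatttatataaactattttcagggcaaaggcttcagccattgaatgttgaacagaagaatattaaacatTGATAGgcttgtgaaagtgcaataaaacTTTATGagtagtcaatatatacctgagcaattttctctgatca
Lct: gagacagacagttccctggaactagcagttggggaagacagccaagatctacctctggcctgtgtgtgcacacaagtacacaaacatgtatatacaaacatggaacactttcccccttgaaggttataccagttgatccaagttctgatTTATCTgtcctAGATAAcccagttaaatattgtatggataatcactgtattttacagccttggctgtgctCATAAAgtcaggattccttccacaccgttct
Sis held a CDX match beginning 43 bases before the start and a GATA match at 71 bases. Lct held CATAAA, the CDX letters of the other strand, at 31 bases and GATA matches at 90 and 101 bases. No motif overlapped another. The letters were found in 11.1% of all 27025 listed promoters of this length for CDX and 27.1% for GATA. The matches are a description, and the genes were chosen after their matches were seen.

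Uptake genes were higher in gut as well. Of 23 genes of sugar and peptide digestion and uptake, 22 were tested and 21 were higher in gut, with none lower. Mgam, the maltase-glucoamylase, had 1173 and 1075 CPM in gut, against 0 and 1.57 CPM in stomach (log2 fold change 11.27 ± 1.31, adjusted p = 0.00318). Slc5a1, the sodium-glucose cotransporter, had 326 and 235 CPM in gut, against 2.62 and 1.57 CPM in stomach (log2 fold change 7.38 ± 0.52, adjusted p = 0.0011). The aminopeptidase Enpep had 128 and 319 CPM in gut, against 0.262 and 0.313 CPM in stomach, a ratio of 849 with an interval of 289.8 to 4119.6 (adjusted p = 0.00108). Slc6a20a was the tested member not called, at 7.49 and 47.4 CPM in gut, against 20.5 and 22.6 CPM in stomach. Of the 21 higher calls, 16 remained without stomach 1 and 9 without stomach 2.

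Of 18 brush border structure genes, all tested, 11 were higher in gut and none was lower, with 6 of the 11 calls left without stomach 1 and 4 without stomach 2. Among the called ones were members of the adhesion complex that links microvilli tip to tip: Cdhr5, a protocadherin, had 635 and 349 CPM in gut, against 1.05 and 0.94 CPM in stomach (log2 fold change 9.31 ± 0.70, adjusted p = 0.0012), and Ush1c, its scaffold, had 139 and 144 CPM in gut, against 0 and 0 CPM in stomach, at least 511-fold higher (adjusted p = 0.00108). Myo7b, the motor of that complex, had 605 and 513 CPM in gut, against 0.262 and 0.313 CPM in stomach, a ratio of 1995 with an interval of 682 to 9679.5 (adjusted p = 0.00108). Not called were, among others, ezrin (Ezr), with 938 and 365 CPM in gut, against 986 and 830.1 CPM in stomach (adjusted p = 0.966), and the bundling protein Pls1, with 537 and 524 CPM in gut, against 484 and 286 CPM in stomach (adjusted p = 0.206).

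Most lipid absorption genes were higher in gut. Of 26, all tested, 18 were higher in gut and none was lower. Fabp1 and Fabp2 carry fatty acids inside the enterocyte. Fabp1 had 186 and 116 CPM in gut, against 0.262 and 0 CPM in stomach, a ratio of 792 with an interval of 219 to 6552 (adjusted p = 0.00124), and Fabp2 had 359 and 603 CPM in gut, against 18.1 and 12.5 CPM in stomach (log2 fold change 5.28 ± 0.41, adjusted p = 0.00127). Npc1l1, the cholesterol uptake protein, had 286 and 206 CPM in gut, against 0.262 and 0.313 CPM in stomach, a ratio of 867 with an interval of 296 to 4209 (adjusted p = 0.00108). Mttp, which loads lipid onto apolipoprotein B, had 1077 and 503 CPM in gut, against 3.41 and 2.51 CPM in stomach (log2 fold change 8.45 ± 0.75, adjusted p = 0.0016). Abcg5, a sterol exporter, had 61.3 and 80.4 CPM in gut, against 0.918 and 1.57 CPM in stomach (log2 fold change 6.25 ± 0.41, adjusted p = 0.00108). Gut 1 was the higher gut library for all 5 listed apolipoproteins, Apoa1 with 2215 and 289 CPM in gut, against 17.8 and 13.5 CPM in stomach among them (log2 fold change 6.80 ± 1.21, adjusted p = 0.0134). Of the 18 higher calls, 8 remained without stomach 1 and 7 without stomach 2.

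Goblet cell products were higher in gut, while Spdef, Agr2 and 3 further members were not called. Of 14 listed goblet genes, all tested, 9 were higher in gut and none was lower. Muc2, the gel-forming intestinal mucin at chr7:141690340-141754693 (GRCm38), had 4689 and 7674 CPM in gut, against 7.34 and 5.33 CPM in stomach (log2 fold change 10.23 ± 0.79, adjusted p = 0.00127). Tff3, the trefoil peptide of goblet cells, had 1189.6 and 1286 CPM in gut, against 1.18 and 0.626 CPM in stomach (log2 fold change 10.64 ± 0.61, adjusted p = 0.00108). Zg16, a lectin that binds Gram-positive bacteria, had 1350.4 and 1514 CPM in gut, against 3.28 and 2.51 CPM in stomach (log2 fold change 9.27 ± 0.55, adjusted p = 0.00108). Atoh1, the factor that commits cells to secretory fates, had 35.3 and 66.3 CPM in gut, against 0 and 0 CPM in stomach, at least 190.4-fold higher (adjusted p = 0.00143). Spdef, which acts downstream in goblet and gastric mucous cells, had 27.8 and 82.9 CPM in gut, against 42.4 and 40.7 CPM in stomach (adjusted p = 0.343), with the groups overlapping. Agr2, a disulfide isomerase needed for mucin folding, had 1399.6 and 2366 CPM in gut, against 893 and 608 CPM in stomach (adjusted p = 0.0562). Clca1, a goblet cell secretory protein, was higher in gut but well read in stomach, at 1684 and 2647 CPM in gut, against 453 and 366 CPM in stomach (adjusted p = 0.0109). Of the 9 higher calls, 6 remained without stomach 1 and 5 without stomach 2.

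Paneth genes were read in both gut libraries. Of 10 listed, 8 were tested, 6 were higher in gut and 1, Habp2, was lower, at 1.78 and 16.8 CPM in gut, against 76.3 and 75.5 CPM in stomach; 4 and 3 of the higher calls remained without stomach 1 and without stomach 2. Lyz1, the Paneth lysozyme, had 98.7 and 606 CPM in gut, against 0.131 and 0.313 CPM in stomach, a ratio of 2081 with an interval of 576 to 17195 (adjusted p = 0.00275). Mmp7, which activates alpha-defensins, had 46.3 and 171 CPM in gut, against 0 and 0.313 CPM in stomach, a ratio of 1262 with an interval of 226 to 49911 (adjusted p = 0.0023). Defa24 had 159 and 777 CPM in gut, against 0 and 0 CPM in stomach, at least 1831-fold higher (adjusted p = 0.0035), though alpha-defensins are near-identical copies and their reads may be split or lost in counting. In all 3, gut 2 was several-fold above gut 1.

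Stem cell genes of the crypt base were called in both directions. Olfm4, a secreted glycoprotein of small intestinal stem cells, had 84.8 and 293 CPM in gut, against 1.31 and 0 CPM in stomach (log2 fold change 8.05 ± 0.93, adjusted p = 0.00318). Axin2, a Wnt target and feedback inhibitor, had 19.3 and 61.4 CPM in gut, against 2.49 and 1.88 CPM in stomach (log2 fold change 4.44 ± 0.56, adjusted p = 0.00422), and Smoc2 had 10.7 and 45.2 CPM in gut, against 0.787 and 0.626 CPM in stomach (log2 fold change 5.49 ± 0.76, adjusted p = 0.00576). Lgr5, the stem cell receptor for R-spondins, had 2.5 and 6.61 CPM in gut, against 3.02 and 0.313 CPM in stomach (adjusted p = 0.249) and overlapped. Sox9 was lower in gut, at 27.8 and 55.1 CPM in gut, against 136 and 113 CPM in stomach (log2 fold change -1.29 ± 0.32, adjusted p = 0.0385). Of 15 listed stem genes 13 were tested, 6 were higher in gut and 1, Sox9, was lower, and 2 and 1 of the 6 remained called without stomach 1 and without stomach 2.

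Since the labels give no segment of the gut, markers of small intestine and colon were read in the same libraries. Car1, Insl5, Hoxb13, Hoxd13 and Prdm8, genes of the colon, had no count in any of the 4 libraries, and Fabp6 and Fgf15 of the ileum had 2 and 1 counts in gut. Gip, the hormone of proximal K cells, had 103 and 39.6 CPM in gut, against 0.131 and 0 CPM in stomach, a ratio of 726 with an interval of 129.6 to 28738 (adjusted p = 0.00238). Adh6a had 45.3 and 126 CPM in gut, against 0 and 0.313 CPM in stomach, a ratio of 981 with an interval of 175 to 38827 (adjusted p = 0.00174). The colon list was not empty of calls: of 17 genes 7 were tested and 6 were higher in gut, among them Car4 with 12.8 and 40.2 CPM in gut, against 0.393 and 0 CPM in stomach, Slc26a3 with 60.6 and 125 CPM in gut, against 0.787 and 0.313 CPM in stomach and B3galt5 with 91.3 and 18.4 CPM in gut, against 1.31 and 0.94 CPM in stomach, and 2 and 1 of the 6 remained called without stomach 1 and without stomach 2. Of 14 listed proximal genes, Gip and Adh6a among them, 13 were tested, 6 were higher and 2 lower in gut. Of 9 ileal genes 5 were tested and 3, Clec2h, Slc51a and Slc51b, were higher in gut. The 9 ileal genes summed to 451 and 272 CPM in gut, against 90.6 and 101 CPM in stomach. Retnlb, on the colon list, had 5.35 and 453 CPM in gut, against 0.131 and 0 CPM in stomach, which is 1 library high and the other low in gut.

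Every listed antigen presentation gene of MHC class II was higher in gut, against 10.7% of all genes tested. The 7 genes summed to 857 and 1230 CPM in gut, against 2.49 and 2.19 CPM in stomach. They passed the filter on low counts through gut, and a call in the other direction was hardly open to them. All 7 were tested and called, 7 of them also without stomach 1 and 6 without stomach 2. Cd74, the invariant chain, had 531 and 626 CPM in gut, against 0.262 and 0.626 CPM in stomach (adjusted p = 0.00108), and H2-Ab1 had 112 and 164 CPM in gut, against 0.131 and 0 CPM in stomach, a ratio of 1527 with an interval of 273 to 60398 (adjusted p = 0.00108). H2-Aa had 132 and 245 CPM in gut, against 0 and 0 CPM in stomach, at least 706-fold higher (adjusted p = 0.0011). Ciita, the transactivator of these genes, had 21 and 65.2 CPM in gut, against 0.393 and 0.626 CPM in stomach (log2 fold change 6.73 ± 0.69, adjusted p = 0.00229). Intestinal epithelium is known to carry class II, and so do immune cells. The 21 listed immune genes summed to 27.8 and 290.2 CPM in gut, against 7.08 and 21 CPM in stomach. Of the 3 tested, 1, Itgam, was higher in gut, and 68.7% of its exon bases overlap another gene. Most of the gut 2 sum was Igkc, with 0.356 and 187 CPM in gut, against 0 and 0 CPM in stomach, and Jchain, with 0.713 and 59.7 CPM in gut, against 0 and 0 CPM in stomach, both plasma cell genes. Ptprc, the pan-leukocyte antigen, had 1.78 and 3.58 CPM in gut, against 1.7 and 0 CPM in stomach, and Cd3d was at 0 in all 4 libraries. The part of immune cells in the class II difference was not tested.

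Antimicrobial genes were mostly higher in gut: of 25, 18 were tested, 13 were higher and 1, Wfdc2, was lower. Pigr, which carries immunoglobulin A into the lumen, had 2091 and 3302 CPM in gut, against 91.9 and 55.4 CPM in stomach (log2 fold change 5.52 ± 0.56, adjusted p = 0.00221). Reg3b, a C-type lectin, had 1394 and 66.9 CPM in gut, against 0.131 and 0.626 CPM in stomach, a ratio of 2326 with an interval of 795 to 11282 (adjusted p = 0.0141), though the Reg3 genes are near copies. Nos2, the inducible nitric oxide synthase, had 36.4 and 74.1 CPM in gut, against 1.05 and 0.313 CPM in stomach (log2 fold change 6.39 ± 0.51, adjusted p = 0.0013). Reg3b was high in gut 1 and Reg4, with 32.4 and 263 CPM in gut, against 0 and 0 CPM in stomach, in gut 2. Of the 13 higher calls, 6 remained without stomach 1 and 2 without stomach 2.

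Gastric pit genes were lower in gut with few exceptions. Of 17 listed genes 16 were tested, 14 were lower in gut, against 7.20% of all genes tested, and none was higher. Their summed level was 785 and 480.1 CPM in gut, against 53497 and 54193 CPM in stomach. The median log2 fold change was -7.44. Of 6 trefoil and gastrokine genes, some on the pit list too, all were called, 5 lower in gut and 1, Tff3, higher, and none of the 5 remained called without stomach 1 or without stomach 2. Muc5ac, the surface mucin at chr7:141788972-141819231 (GRCm38), had 2.14 and 89.5 CPM in gut, against 19594 and 17106 CPM in stomach (log2 fold change -8.46 ± 1.78, adjusted p = 0.024). Gkn1 and Gkn2, the gastrokines that protect the surface, followed. Gkn1 had 1.07 and 60 CPM in gut, against 6755 and 8244 CPM in stomach (log2 fold change -7.77 ± 1.67, adjusted p = 0.0258), and Gkn2 had 1.78 and 63 CPM in gut, against 7907 and 9946 CPM in stomach (log2 fold change -7.93 ± 1.61, adjusted p = 0.0212). The trefoil gene Tff1 had 0.713 and 73.5 CPM in gut, against 4562 and 6858 CPM in stomach (log2 fold change -7.11 ± 1.75, adjusted p = 0.0392), and 31.4% of its exon bases overlap another gene. Psca, a surface antigen, had 0.356 and 4.68 CPM in gut, against 1123 and 1198 CPM in stomach (log2 fold change -8.52 ± 0.90, adjusted p = 0.00236), and the protease Ctse had 28.5 and 15.7 CPM in gut, against 2018 and 1811 CPM in stomach (log2 fold change -6.05 ± 0.63, adjusted p = 0.0023). Anxa10 and Krt7 were tested and not called. Krt7 had 405 and 83.1 CPM in gut, against 69.2 and 10.7 CPM in stomach (adjusted p = 0.106) and Anxa10 298 and 9.36 CPM in gut, against 1416 and 991 CPM in stomach (adjusted p = 0.286).

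Gut 2 held the named pit mucin, gastrokine and trefoil transcripts at higher levels than gut 1, where Krt7 and Anxa10 made up most of the sum. Muc5ac in gut 2 stood at 0.488% of the stomach mean, and in gut 1 at 0.0117%. Gkn1 stood at 0.8% in gut 2 and 0.0143% in gut 1, and Tff1 at 1.29% and 0.0125%. Of 15 listed parietal genes, 8 were higher in gut 2 than in gut 1. Atp4a was at 0.158% in gut 2 and 0.103% in gut 1, on 2 and 1 counts, and Kcnj15 at 0.48% in gut 2 and 0 in gut 1. Slc9a4 ran the other way, at 0.0595% in gut 2 and 0.385% in gut 1. These parietal values rest on few counts in gut. The log2 fold change of Muc5ac was -12.53 without gut 2, that of Gkn1 -12.24, that of Gkn2 -11.77 and that of Tff1 -12.44. Of the 14 pit calls, 5 remained without stomach 1 and 2 without stomach 2.

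The promoter of Gkn1, shown as the gastric counterpart of the enterocyte promoters above, had no CDX letters and held GATA matches at 82 and 220 bases before the start, in capitals (chr6:87350916-87351165, minus strand, GRCm38.p6). In GENCODE the gene begins at 87350942, within the last bases shown. GATA factors were read in both tissues. Most listed promoters have no CDX letters, which were found in 11.1% of all 27025, against 27.1% for GATA. Their absence from this promoter is not read as a result about gastric genes.
Gkn1: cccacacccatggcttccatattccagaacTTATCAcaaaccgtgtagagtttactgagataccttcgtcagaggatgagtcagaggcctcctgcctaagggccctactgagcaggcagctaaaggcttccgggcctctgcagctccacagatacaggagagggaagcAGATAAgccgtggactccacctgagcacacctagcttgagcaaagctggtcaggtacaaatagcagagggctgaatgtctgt

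Neck and gland genes were lower in gut as well. Of 9 listed, all tested, 5 were lower and 1, Cftr, was higher, at 81.3 and 144 CPM in gut, against 32.4 and 11.6 CPM in stomach. Muc6, the gland mucin, had 12.1 and 38.5 CPM in gut, against 2741 and 2334 CPM in stomach (log2 fold change -6.38 ± 0.68, adjusted p = 0.00241). Tff2, its trefoil partner, had 0 and 36.1 CPM in gut, against 2447 and 2611 CPM in stomach (log2 fold change -6.94 ± 1.68, adjusted p = 0.0374). Pgc, pepsinogen C, had 2.85 and 30.6 CPM in gut, against 6594 and 6201 CPM in stomach (log2 fold change -8.36 ± 1.21, adjusted p = 0.00677). A4gnt, which caps gland mucin sugars, had 2.5 and 7.71 CPM in gut, against 125 and 75.2 CPM in stomach (log2 fold change -3.95 ± 0.46, adjusted p = 0.0033). Of the 5 lower calls, 4 remained without stomach 1 and 2 without stomach 2.

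Most tested parietal genes were lower in gut, against 7.20% of all genes tested. Of 15 listed, 12 were tested, 9 were lower in gut and none was higher. Atp4a, the catalytic subunit of the proton pump at chr7:30712209-30725534 (GRCm38), had 0.356 and 0.551 CPM in gut, against 407 and 288 CPM in stomach, a ratio of 0.00125 with an interval of 0.000258 to 0.00366 (adjusted p = 0.00108). Atp4b, the other subunit, had 0 and 0.551 CPM in gut, against 134 and 63.6 CPM in stomach, a ratio of 0.00274 with an interval of 0.000332 to 0.00993 (adjusted p = 0.00164). Slc9a4, a basolateral sodium-proton exchanger, had 1.78 and 0.275 CPM in gut, against 502 and 424 CPM in stomach (log2 fold change -8.53 ± 0.75, adjusted p = 0.00159), and 21.3% of its exon bases overlap another gene. Kcnj15, a potassium channel, had 0 and 2.2 CPM in gut, against 407 and 510.3 CPM in stomach (log2 fold change -8.30 ± 0.88, adjusted p = 0.00236). Kcnq1, found in other epithelia too, was not called, with 15.3 and 31.4 CPM in gut, against 13.1 and 10 CPM in stomach (log2 fold change 1.31 ± 0.36, adjusted p = 0.0557), and neither was Aqp4, with 7.13 and 17.3 CPM in gut, against 5.9 and 0.313 CPM in stomach (log2 fold change 2.14 ± 0.85, adjusted p = 0.15); in both, each gut library stood above each stomach library. The log2 fold changes of Kcnq1 and Aqp4 were 1.58 and 2.44 without gut 1, and 0.93 and 1.57 without gut 2. Slc4a2, the third tested member not called, had 86.3 and 72.4 CPM in gut, against 161 and 147 CPM in stomach. Of the 9 lower calls, 6 remained without stomach 1 and 4 without stomach 2.

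Most tested chief cell genes were lower in gut, against 7.20% of all genes tested. The 10 listed genes summed to 6.06 and 28.1 CPM in gut, against 399 and 190 CPM in stomach. Members with few counts in gut passed the filter on low counts through stomach. A call in the other direction was hardly open to them. Gif, the intrinsic factor that mouse chief cells make, had 0 and 0.275 CPM in gut, against 89.6 and 39.5 CPM in stomach, a ratio of 0.00208 with an interval of 5.25e-05 to 0.0116 (adjusted p = 0.00187). Pga5, a pepsinogen A gene, had 0.356 and 0 CPM in gut, against 44.7 and 33.8 CPM in stomach, a ratio of 0.00374 with an interval of 9.45e-05 to 0.021 (adjusted p = 0.00193). Pdia2, a disulfide isomerase, had 1.07 and 0.826 CPM in gut, against 37 and 20 CPM in stomach (log2 fold change -4.56 ± 0.52, adjusted p = 0.00306). Lipf, the gastric lipase, had 0 counts in gut and in stomach 1 and 2.82 CPM in stomach 2, and was not tested. Of 10 listed, 6 were tested, 4 were lower in gut and none was higher, and all 4 were still called without stomach 1 and without stomach 2.

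The intestinal hormone genes that could be tested were higher in gut, against 10.7% of all genes tested. They had few or no counts in stomach and so passed the filter on low counts through gut. A call in the other direction was hardly open to them. Of 9 intestinal hormone genes 4 were tested and all 4 were called, 2 of them also without stomach 1 and 2 without stomach 2. Besides Gip, Sct (secretin) had 10.7 and 19.5 CPM in gut, against 0 and 0 CPM in stomach, at least 56.6-fold higher (adjusted p = 0.00295), and Cck (cholecystokinin) had 4.99 and 14 CPM in gut, against 0 and 0 CPM in stomach, at least 36.4-fold higher (adjusted p = 0.0079). Of 5 gastric hormone and enterochromaffin-like cell genes 3 were tested and none was called by edgeR (2 at an unadjusted p under 0.05, 0 by DESeq2). Of 15 genes shared by endocrine cells of both organs 5 were tested, 1 was higher and 1 lower in gut. Ghrl (ghrelin) had 0.713 and 2.2 CPM in gut, against 78 and 1.57 CPM in stomach, high in stomach 1 alone, and Gast (gastrin) had 0 and 0.826 CPM in gut, against 0.525 and 0 CPM in stomach, and neither was tested. Chga, a granule protein of all endocrine cells, had 8.2 and 12.1 CPM in gut, against 141 and 18.8 CPM in stomach (adjusted p = 0.086). Ghrl and Chga were higher in stomach 1 than in stomach 2. Of 16 listed tuft cell genes 7 were tested and 2 were lower in gut, Avil at 22.5 and 11 CPM in gut, against 179 and 176 CPM in stomach and Ltc4s at 0.713 and 1.1 CPM in gut, against 9.05 and 9.4 CPM in stomach, and neither remained called without stomach 1 or without stomach 2. Trpm5, the taste-pathway channel that marks tuft cells, had 11.8 and 12.4 CPM in gut, against 11 and 1.25 CPM in stomach (adjusted p = 0.318). Beside the 2 of 7 tuft genes, 7.20% of all genes tested were lower in gut.

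**Figure D3:**
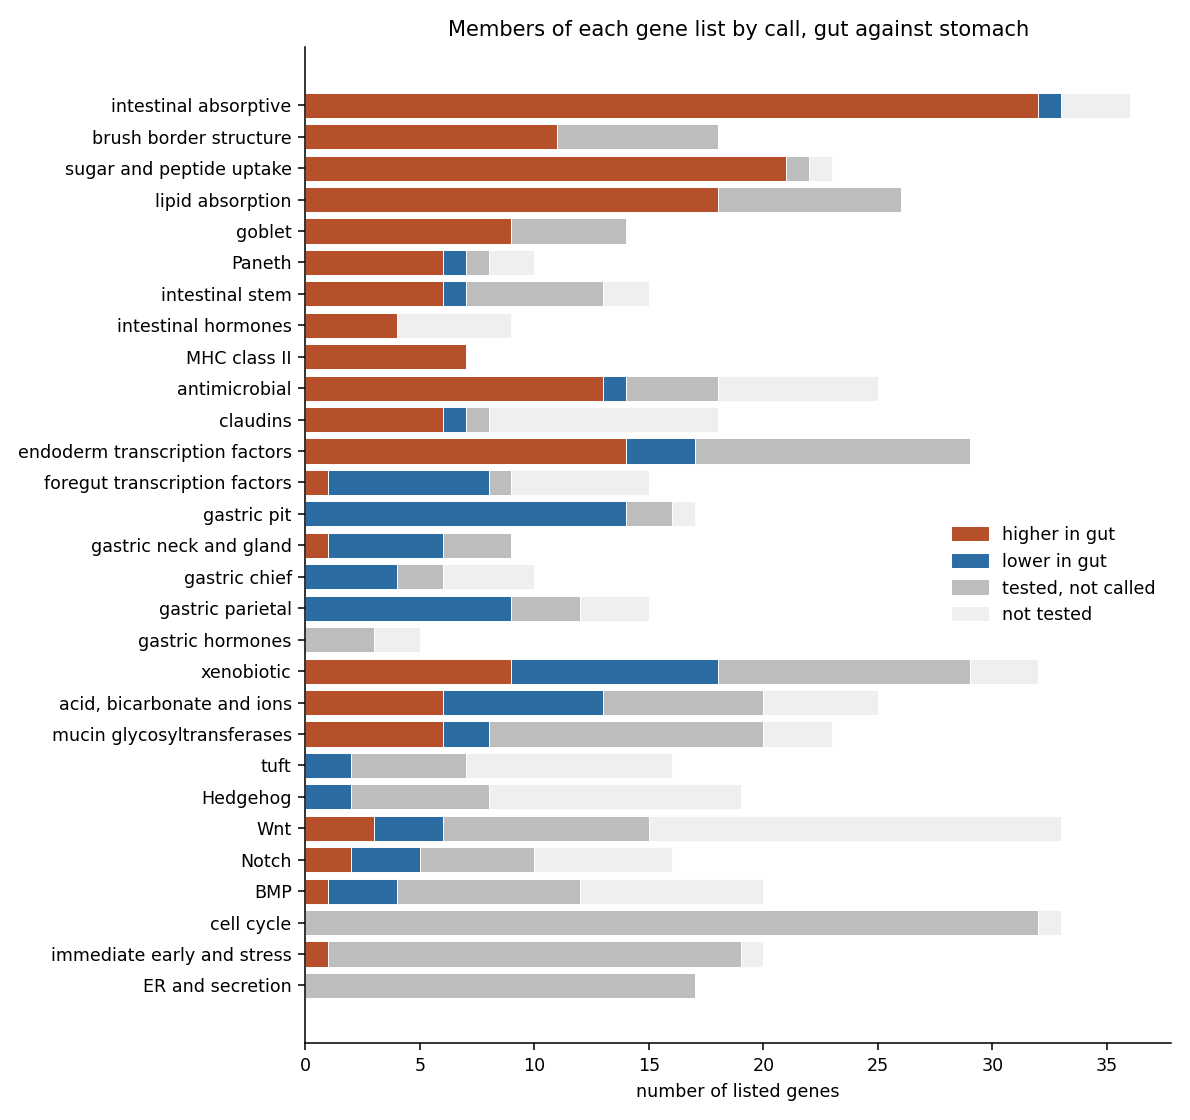
Each bar is a gene list, its length the number of listed genes, split by colour into members called higher in gut, called lower in gut, tested and not called, and not tested. Absorptive, uptake and MHC class II lists are almost wholly higher in gut, pit and parietal lists mostly lower, and the cell cycle and secretion lists hold no call.

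Mucin genes were called in both directions. Of 12 mucin genes 10 were tested, 6 were higher and 3 were lower in gut, and 1 was not called, with 5 and 3 of the higher calls left without stomach 1 and without stomach 2. Muc13, a membrane mucin of enterocytes, had 2489 and 1562 CPM in gut, against 0.393 and 0.94 CPM in stomach (log2 fold change 12.08 ± 0.92, adjusted p = 0.00124). Muc3a had 58.1 and 99.4 CPM in gut, against 0 and 0 CPM in stomach, at least 294-fold higher (adjusted p = 0.00113), and Muc3, listed as a separate gene with like sequence, had 787 and 27.3 CPM in gut, against 0 and 0.313 CPM in stomach, so the split between these is uncertain. Muc1, the membrane mucin of gastric surface cells, had 0.356 and 3.85 CPM in gut, against 518 and 546 CPM in stomach (log2 fold change -7.63 ± 0.76, adjusted p = 0.00217). Of 23 listed enzymes that build mucin sugars 20 were tested, 6 were higher and 2 were lower, A4gnt and B4galnt3. Of the higher calls, 2 remained without stomach 1 and 2 without stomach 2, and of the lower calls, 2 and 1. B4galnt2, which adds the last sugar of the Sda antigen, had 134 and 159 CPM in gut, against 0.131 and 0 CPM in stomach, a ratio of 1599.8 with an interval of 286 to 63252 (adjusted p = 0.00108). Galnt3, Galnt4 and Galnt7, which start the sugar chains, were not called.

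Claudins of the tight junction were called in both directions. Cldn18, the stomach claudin, had 0.356 and 6.88 CPM in gut, against 1334 and 897 CPM in stomach (log2 fold change -7.94 ± 0.99, adjusted p = 0.00398). Cldn15, which forms cation pores in the intestine, had 162 and 150.3 CPM in gut, against 0.131 and 0 CPM in stomach, a ratio of 1682 with an interval of 301 to 66505 (adjusted p = 0.00108). Cldn7 had 388 and 229 CPM in gut, against 2.36 and 0 CPM in stomach (log2 fold change 8.14 ± 1.00, adjusted p = 0.00374), and Cldn3 had 337 and 185 CPM in gut, against 0.262 and 0 CPM in stomach, a ratio of 1357 with an interval of 375 to 11214 (adjusted p = 0.00129). Of 18 claudins 8 were tested, 6 were higher and 1 was lower in gut, and Cldn12, at 19.3 and 25.3 CPM in gut, against 47 and 32 CPM in stomach, was not called. Without stomach 1, 4 of the higher calls remained, and 4 without stomach 2. The junction scaffolds Tjp1 and Tjp3 were read in both tissues and not called.

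Cdh17, the liver-intestine cadherin, had 1226 and 632 CPM in gut, against 0 and 0 CPM in stomach, at least 3214-fold higher in gut (adjusted p = 0.00192). Cdh1, E-cadherin, was not called at 1299 and 676 CPM in gut, against 1626 and 1174 CPM in stomach (adjusted p = 0.935). Krt8, the gene whose reporter was sorted, had 3113 and 363 CPM in gut, against 407 and 377 CPM in stomach (log2 fold change 2.62 ± 1.04, adjusted p = 0.149), and gut 1 alone stood apart. Without gut 1 its log2 fold change was 0.04 (adjusted p = 0.941), and without gut 2 it was 3.51 (adjusted p = 1.77e-07). Krt20, the keratin of mature intestinal cells, had 3132 and 456 CPM in gut, against 13.4 and 5.33 CPM in stomach (log2 fold change 8.06 ± 1.31, adjusted p = 0.00984). Krt18 and Krt19, read in all simple epithelia, were not called. Of 25 simple epithelial genes 23 were tested, 8 were higher and 1 lower in gut, and 2 of the 8 remained called without stomach 1 and 2 without stomach 2. Epcam, an adhesion molecule used as a sorting marker elsewhere in the series, was higher in gut at 1147 and 687 CPM in gut, against 187 and 145 CPM in stomach (log2 fold change 2.86 ± 0.50, adjusted p = 0.0129).

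Detoxification genes split evenly, 9 higher and 9 lower in gut among 29 tested of 32. Without stomach 1, 5 of the higher and 3 of the lower calls remained, and without stomach 2, 5 and 2 did. The higher ones included the export pumps Abcc2, with 117 and 150.0 CPM in gut, against 0.787 and 0.626 CPM in stomach (log2 fold change 7.81 ± 0.38, adjusted p = 0.00108), and Abcg2, with 66.3 and 60 CPM in gut, against 1.97 and 1.25 CPM in stomach (log2 fold change 5.57 ± 0.39, adjusted p = 0.00108). Cyp4f14, a fatty acid hydroxylase, had 107 and 156 CPM in gut, against 0 and 0.313 CPM in stomach, a ratio of 1457 with an interval of 261 to 57611 (adjusted p = 0.00108). The lower ones included the conjugating and oxidising enzymes Gsta4, with 129.8 and 68.6 CPM in gut, against 1913 and 1922 CPM in stomach (log2 fold change -3.88 ± 0.59, adjusted p = 0.0079), and Aldh1a1, with 7.49 and 15.4 CPM in gut, against 158 and 132 CPM in stomach (log2 fold change -3.35 ± 0.34, adjusted p = 0.00229).

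Acid, bicarbonate and ion transport also split, with 6 higher and 7 lower among 20 tested of 25, and without stomach 2 these were 3 and 5. Slc26a3, the chloride-bicarbonate exchanger, had 60.6 and 125 CPM in gut, against 0.787 and 0.313 CPM in stomach (log2 fold change 7.47 ± 0.51, adjusted p = 0.00108). Car2, cytosolic carbonic anhydrase, was lower in gut, with 10.7 and 20.4 CPM in gut, against 2602 and 2143 CPM in stomach (log2 fold change -6.95 ± 0.56, adjusted p = 0.0013).

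Signalling ligands were among the calls in both directions. Beside the Hedgehog, Notch, Wnt and BMP counts that follow, 17.9% of all genes tested were called, 10.7% higher and 7.20% lower in gut. With so few members tested, the counts are not read as a result about these pathways. Shh, the Hedgehog ligand of foregut epithelium at chr5:28456815-28467256 (GRCm38), had 0 and 0.275 CPM in gut, against 58.8 and 47.9 CPM in stomach, a ratio of 0.0028 with an interval of 7.07e-05 to 0.0156 (adjusted p = 0.00116), and 28.3% of its exon bases overlap another gene. Ihh, the ligand of mature intestinal and gastric epithelium, had 31.7 and 31.7 CPM in gut, against 54.3 and 37.3 CPM in stomach (log2 fold change -0.18 ± 0.28, adjusted p = 0.724). Disp1, which releases the ligands, had 3.56 and 12.4 CPM in gut, against 41.3 and 29.1 CPM in stomach (log2 fold change -1.83 ± 0.48, adjusted p = 0.0467). Shh and Disp1 were the 2 calls among 8 tested of 19 Hedgehog genes, 1 of them left without stomach 1 and 1 without stomach 2, and the target Gli1 had at most 0.551 CPM in any of the 4.

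In the Notch list 10 of 16 genes were tested, with 2 higher and 3 lower in gut, of which 1 and 1 remained without stomach 1, and 1 and 0 without stomach 2. The ligands Dll1, with 33.9 and 84 CPM in gut, against 1.05 and 0.313 CPM in stomach (log2 fold change 6.47 ± 0.58, adjusted p = 0.00163), and Dll4, with 16 and 33.6 CPM in gut, against 3.67 and 3.45 CPM in stomach (log2 fold change 3.09 ± 0.41, adjusted p = 0.00492), were higher, and 20.5% of the exon bases of Dll1 overlap another gene. The ligands Jag2, with 1.43 and 3.3 CPM in gut, against 23 and 33.2 CPM in stomach (log2 fold change -3.23 ± 0.49, adjusted p = 0.00784), and Jag1, with 10.7 and 20.4 CPM in gut, against 69.5 and 54.2 CPM in stomach (log2 fold change -1.68 ± 0.31, adjusted p = 0.0147), were lower, as was the target Hes1, with 24.2 and 32.8 CPM in gut, against 106 and 112 CPM in stomach (log2 fold change -1.62 ± 0.28, adjusted p = 0.0113). The named Delta ligands were higher and the Jagged ligands lower in gut.

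In the Wnt list 15 of 33 genes were tested, with 3 higher (Axin2, Fzd7 and Sp5) and 3 lower (Lgr4, Sox9 and Wnt11). Lgr4, the R-spondin receptor of wide expression, had 131 and 164 CPM in gut, against 455 and 390.3 CPM in stomach (log2 fold change -1.19 ± 0.31, adjusted p = 0.0459), and the target Sp5 had 4.28 and 3.58 CPM in gut, against 0 and 0 CPM in stomach, at least 14-fold higher (adjusted p = 0.013). In the BMP list 12 of 20 were tested, with 1 higher and 3 lower. The lower calls of the Wnt and BMP lists were lost without stomach 1 and without stomach 2, and of the 3 higher Wnt calls 1 remained without stomach 1 and none without stomach 2. Sp5 was not tested without gut 1 or without gut 2. Bmp3 had 8.91 and 13.5 CPM in gut, against 0.131 and 0 CPM in stomach, a ratio of 124 with an interval of 21.6 to 4977 (adjusted p = 0.00232), and the target Id2 had 20.3 and 21.5 CPM in gut, against 101 and 107 CPM in stomach (log2 fold change -1.99 ± 0.29, adjusted p = 0.00677).

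Cell cycle and secretory pathway genes gave no call, while 17.9% of all genes tested were called, 10.7% higher and 7.20% lower in gut. None of 32 tested cell cycle genes was called by edgeR (1 at an unadjusted p under 0.05, 1 by DESeq2) and none of 17 secretory pathway genes (1 and 0), and 1 of 19 tested stress genes, Zfp36, was higher in gut. Mki67, a marker of cycling cells, had 227 and 448 CPM in gut, against 431 and 489.6 CPM in stomach (adjusted p = 0.811). The cell cycle genes differed between the gut libraries: all 33 listed were higher in gut 2 than in gut 1, 23 of them more than 2-fold. Top2a, with 90.9 and 279.7 CPM in gut 1 and gut 2, is an example.

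The gut libraries differed in further groups. Among 12604 genes with at least 20 counts over both, 2567 were more than 2-fold higher in gut 2 and 937 more than 2-fold higher in gut 1. Gut 1 was high in apolipoproteins, Alpi, with 1702 and 80.4 CPM in gut 1 and gut 2, Krt20, with 3132 and 456 CPM, and Reg3b. Gut 2 was high in Paneth, cycling and connective tissue genes. The 13 fibroblast genes summed to 10.7 and 183 CPM in gut, against 60.2 and 93.3 CPM in stomach. The 8 endothelial genes summed to 15.3 and 116 CPM in gut, against 9.31 and 13.5 CPM in stomach. None of the 2 tested genes of either list was called by edgeR (fibroblast, 1 at an unadjusted p under 0.05 and 3 by DESeq2; endothelial, 1 and 0). Of 19 squamous genes 6 were tested, and of 9 smooth muscle genes 1, and none was called by edgeR (squamous, 1 and 1; smooth muscle, 0 and 0). DESeq2, whose filter differs, was read over each whole list. The 8 glial, 5 mesothelial and 5 erythrocyte genes had too few counts for edgeR's test, while DESeq2 called 2 of the mesothelial genes. None of 5 sex-linked genes was called by edgeR (0 at an unadjusted p under 0.05, 0 by DESeq2), and of 13 pancreatic acinar genes Rbpjl alone was tested, and was lower in gut. Decorin (Dcn) had 0.713 and 46.8 CPM in gut, against 0.131 and 0.626 CPM in stomach, and Kdr had 0.713 and 25.6 CPM in gut, against 0 and 0 CPM in stomach. The part of these cells in other results was not tested.

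**Figure D4:**
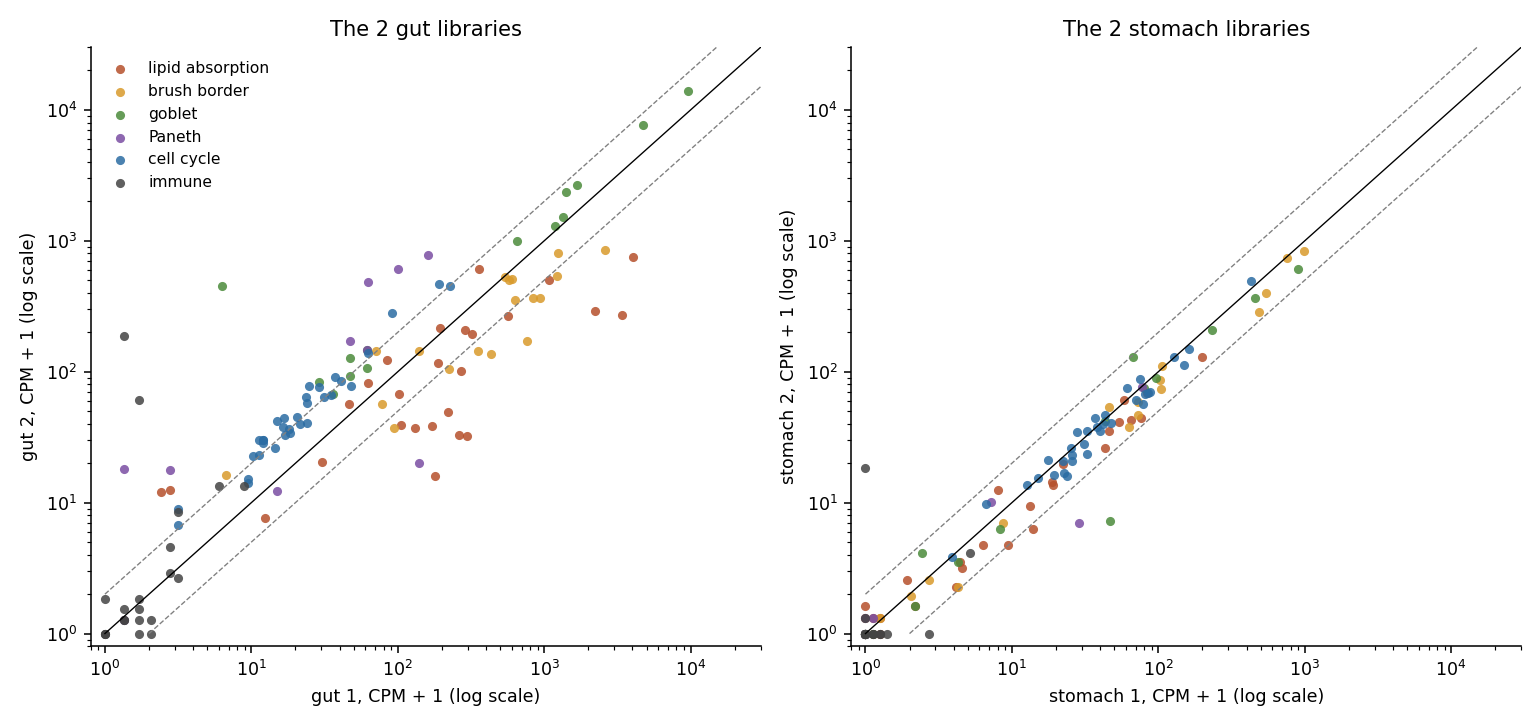
Each point is a listed gene, with its CPM plus 1 in replicate 1 against replicate 2 of the same tissue on log axes, gut left and stomach right; the solid line marks equal values and the dashed lines 2-fold. In gut, most lipid absorption genes lie below the line and most cell cycle and Paneth genes above it, while most stomach points keep close to the line.

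Among all genes, the largest calls with at least 20 CPM in the higher tissue were mostly genes read in 1 tissue alone. Among the 12 named genes of that direction, Cdh17 and Defa24 had the highest bounds. Clec2h had 301 and 199 CPM in gut, against 0 and 0 CPM in stomach, at least 878-fold higher. Guca2a, guanylin, which acts on intestinal salt and water transport, had 135 and 263 CPM in gut, against 0 and 0 CPM in stomach, at least 748-fold higher. Ccl6, a chemokine, had 112 and 280.3 CPM in gut, against 0 and 0 CPM in stomach, at least 746-fold higher, and Slc28a2, a nucleoside transporter, had 247 and 7.43 CPM in gut, against 0 and 0 CPM in stomach, at least 404-fold higher. Slc28a2 rested on gut 1 in the main. Clca4b had 2688 and 211 CPM in gut, against 0 and 0.313 CPM in stomach, a ratio of 13959 with an interval of 2505 to 551424, within a family of near copies. All were called, with adjusted p between 0.00108 for Ush1c and 0.0453 for Slc28a2.

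In the other direction Chil4, a chitinase-like protein, had 0 and 0 CPM in gut, against 102 and 548 CPM in stomach, at least 501-fold higher in stomach (adjusted p = 0.00968). Ppp1r3a, a glycogen-targeting subunit of protein phosphatase, had 0 and 0 CPM in gut, against 126 and 112 CPM in stomach, at least 262-fold higher in stomach (adjusted p = 0.0011). Bpifb1, a secreted protein of airway and upper digestive epithelium, had 0 and 0 CPM in gut, against 53 and 59.5 CPM in stomach, at least 118-fold higher in stomach (adjusted p = 0.00159). Fa2h, the fatty acid 2-hydroxylase, had 0 and 0 CPM in gut, against 37.6 and 24.4 CPM in stomach, at least 72.4-fold higher in stomach, and the chemokine Cxcl17 had 0 and 0.275 CPM in gut, against 129 and 166 CPM in stomach, a ratio of 0.00111 with an interval of 2.81e-05 to 0.0062. Over the table, 106 genes with a mean of at least 10 CPM in gut had no count in stomach, and 24 genes with such a mean in stomach had no count in gut.

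The 4 columnar junction libraries, with the depth given in the account of the processing, were then set beside both tissues in a fit of the 8 libraries. The 2 comparisons share the junction libraries, so their values stand side by side only. Gut against junction gave 7273 calls of 16733 genes tested (43.5%), 3605 higher in gut (21.5%) and 3668 lower (21.9%). Stomach against junction gave 5080 calls (30.4%), 2180 higher in stomach (13.0%) and 2900 lower (17.3%), and 2069 without stomach 1 and 2679 without stomach 2. The junction gate also asked for high EpCam, and Epcam itself had 1147 and 687 CPM in gut and 187 and 145 CPM in stomach, against 566, 604, 505 and 514 CPM in junction, a log2 difference of 1.36 ± 0.26 for gut minus junction (adjusted p = 0.00289) and -1.45 ± 0.29 for stomach minus junction (adjusted p = 0.00625).

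Absorptive genes were higher in gut than in junction. Of 33 absorptive genes tested 32 were higher in gut than in junction, and 2 were higher and 10 lower in stomach than in junction. Hnf4a had 784 and 522 CPM in gut and 203 and 154 CPM in stomach, against 212, 189, 143 and 167 CPM in junction, a log2 difference of 2.49 ± 0.25 for gut minus junction (adjusted p = 7.68e-05) and 0.27 ± 0.26 for stomach minus junction (adjusted p = 0.464). Cdx2 had 90.2 and 124 CPM in gut and 0 and 0 CPM in stomach, against 0.307, 0, 0 and 0 CPM in junction. Gata4 had 181 and 123 CPM in gut and 472 and 392 CPM in stomach, against 172, 139.9, 139 and 146 CPM in junction, with 0.63 ± 0.23 for gut minus junction (adjusted p = 0.0492) and 1.80 ± 0.22 for stomach minus junction (adjusted p = 0.000586).

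Gastric genes differed in both directions between stomach and junction. Muc5ac had 19594 and 17106 CPM in stomach, against 1016, 832, 2036 and 2380.2 CPM in junction and was higher in stomach, by 3.83 ± 0.83 (adjusted p = 0.00824). Gkn1 had 6755 and 8244 CPM in stomach, against 1590.2, 1149, 1721 and 1567 CPM in junction and was higher in stomach, by 2.61 ± 0.72 (adjusted p = 0.0242). Muc6 ran the other way, with 2741 and 2334 CPM in stomach, against 16594, 15286, 8837 and 5103 CPM in junction, a difference of -1.91 ± 0.55 for stomach minus junction (adjusted p = 0.0291). Gif had 89.6 and 39.5 CPM in stomach, against 3453, 3600.0, 2552 and 978 CPM in junction, and stomach minus junction was -5.12 ± 0.64 (adjusted p = 0.000645). Sox2 had 11.7 and 8.14 CPM in stomach, against 40, 48.3, 35.5 and 48.8 CPM in junction, with -1.84 ± 0.28 for stomach minus junction (adjusted p = 0.00153). Shh had 58.8 and 47.9 CPM in stomach, against 19.8, 18.5, 26.4 and 46.3 CPM in junction, with 1.22 ± 0.33 for stomach minus junction (adjusted p = 0.0205). Pgc had 6594 and 6201 CPM in stomach, against 12875, 11075, 12753 and 6689 CPM in junction, with -0.49 ± 0.58 for stomach minus junction (adjusted p = 0.562).

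All 15 tested tuft genes were lower in gut and lower in stomach than in junction, against 21.9% and 17.3% of all genes tested. Of the same list 7 were tested in gut against stomach, so some may have passed the filter through junction alone. The genes shared by endocrine cells likewise went from 5 tested to 13. For genes that passed in this way, a call in the other direction was hardly open. Endocrine genes differed by kind. Of 13 tested genes shared by endocrine cells, 8 were lower in gut and 11 lower in stomach than in junction, and none was higher. All 4 tested gastric hormone and enterochromaffin-like cell genes were lower in both. Of 7 tested intestinal hormone genes, 4 (Gip, Sct, Cck and Tac1) were higher and 1 lower in gut than in junction, and 2 were lower in stomach than in junction. Chga had 8.2 and 12.1 CPM in gut and 141 and 18.8 CPM in stomach, against 1279, 1337, 2592 and 1504 CPM in junction, with -6.82 ± 0.85 for gut minus junction (adjusted p = 0.000247) and -4.19 ± 0.72 for stomach minus junction (adjusted p = 0.00287). Ghrl had 78 and 1.57 CPM in stomach, against 681, 290.1, 954 and 636 CPM in junction, with -3.78 ± 1.01 for stomach minus junction (adjusted p = 0.0212). Lgr5 had 2.5 and 6.61 CPM in gut and 3.02 and 0.313 CPM in stomach, against 73, 101, 53 and 45.9 CPM in junction, with -3.33 ± 0.54 for gut minus junction (adjusted p = 0.0011) and -4.82 ± 0.58 for stomach minus junction (adjusted p = 0.000535). The MHC class II genes stood in between: all 7 were higher in gut than in junction, 6 were lower in stomach than in junction, and Cd74 had 531 and 626 CPM in gut and 0.262 and 0.626 CPM in stomach, against 115, 68.2, 235 and 331 CPM in junction.

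**Figure D5:**
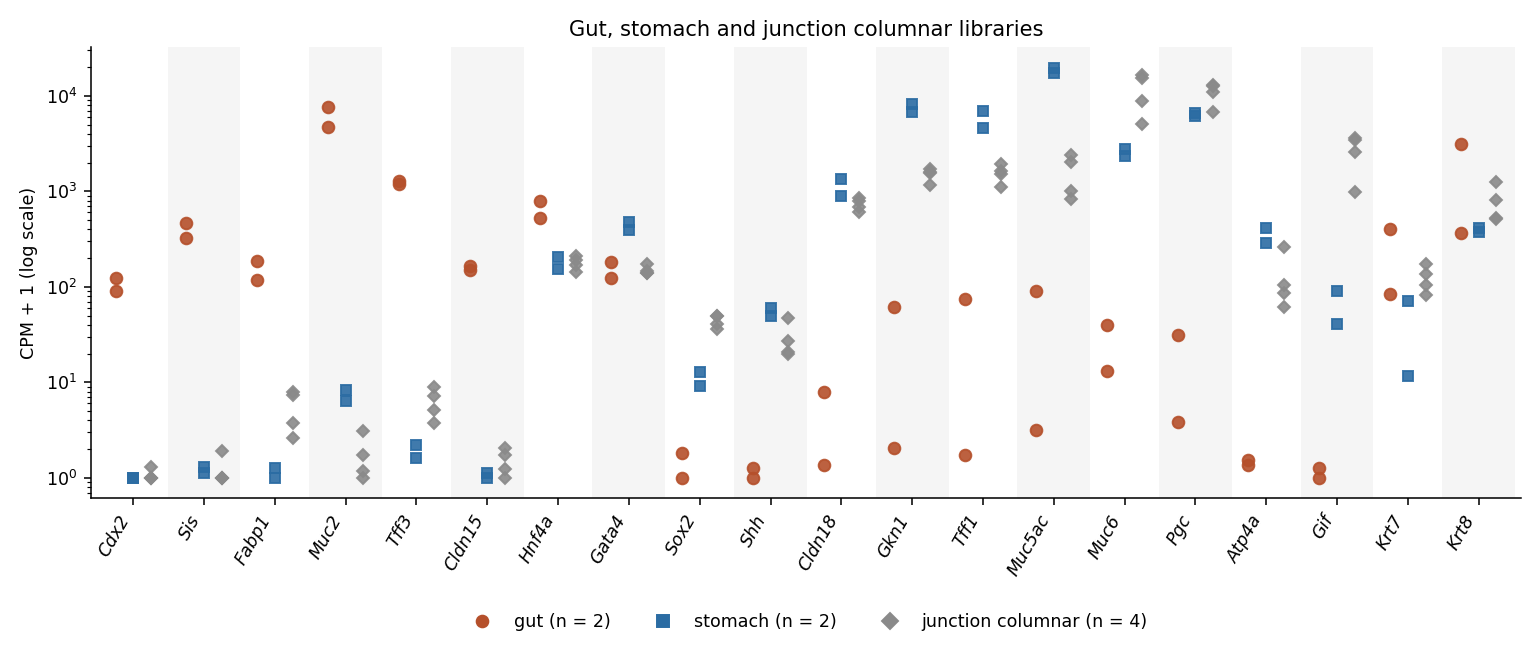
Each point is the CPM plus 1 of a gene in 1 library on a log axis, with gut (2 libraries), stomach (2) and junction columnar (4) from left to right within each gene. Cdx2, Sis and Muc2 are high in gut alone, Muc5ac and Gkn1 are highest in stomach, and Muc6, Gif and Sox2 are highest in junction.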

How the data were processed

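Bulk RNA-seq was read in cells sorted on YFP from Krt8YFP mice: total RNA, NuGEN Ovation Solo libraries and NovaSeq 6000 sequencing, per the labels' protocols. The deposited table holds whole-number counts for each Ensembl gene, from STAR 2.5.3a and HTSeq on GRCm38 per the submitters' processing notes, which also name edgeR; strand setting and annotation release: not given in the sources used here. So reads of overlapping genes may be shared.

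Counts were tested with edgeR 4.0.16 (R 4.3.3; filterByExpr with a minimum count of 10, TMM scaling, quasi-likelihood F test) on the 2 gut and 2 stomach libraries, with Benjamini-Hochberg adjustment over 13380 genes; the standard error is the log2 fold change divided by the root of F. The junction comparison was a fit of 8 libraries; the junction libraries held 4286047 to 6504645 counts. The test was also run on simulated counts for gut against stomach (12922 genes). It recovered 2% of 50 genes changed by a log2 fold of 1, 64% at 2 and 100% at 3. The simulation gave both tissues the same spread, while the real gut libraries lay further apart than the stomach libraries. In it, smaller changes were mostly not called with 2 libraries a tissue. Coordinates and exon overlaps are from GENCODE on GRCm38, with 52403 of 52636 identifiers matched.

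Genes were named by rule: 50 anchor genes, the 3 calls of smallest p in each of 47 lists (699 genes), and the 12 largest changes each way, with a mean of 20 CPM or more in the higher tissue and libraries that do not overlap; others were picked after their values were seen. Members and lists were chosen with earlier results of these data known. Whether libraries with equal replicate numbers belong together is not known, and the main test did not pair them. The counts of the 2 libraries of each tissue differed beyond sampling noise (chi-square per degree of freedom 34.2 in gut and 26.3 in stomach). Alternatives included DESeq2 1.42.0, other scalings, filters and sets of libraries. Some genes that the rule names are not reported here.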

Additional observations from a re-analysis of the deposited data

Results flagged for a closer look

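Within the 4 columnar junction libraries, 3 anchor genes had a library far from the others by Dixon's gap test, which chance alone meets in about 1 in 20 groups. Lyz1 had 293.5 CPM in junction 3, and the nearest other library had 9.40 CPM. Alpi had 8.30 CPM in junction 1, and the nearest other had 0.233 CPM. Gkn2 had 1290.2 CPM in junction 2, below the nearest other at 1765 CPM. Groups of 2 libraries, gut and stomach among them, are too small for this test.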

How the results depend on the processing

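Against 2398 calls (1435 higher and 963 lower in gut), RLE size factors gave 2386, DESeq2 2582, thinning to the smallest library 2224, a minimum log2 fold change of 1 gave 2392 and leaving out mitochondrial and ribosomal RNA repeat genes, chosen after seeing the data, 2391. With no filter on low counts there were 3944 (2441 higher and 1503 lower). A fit of all 51 libraries gave 6413 (3249 and 3164) and a fit of the 8 columnar libraries 4894 (2622 and 2272), both with the spread estimated over more libraries; they moved the share of higher calls to 50.7% and 53.6%, against 59.8%. Leaving out 1 library gave 461 to 4776 calls, 304 to 2749 higher and 157 to 2027 lower, the lowest without stomach 2 and the highest without gut 2; the called list genes, 232 in all, came to 92 to 319. The replicate block gave 2316 calls, 2154 of them shared, and under the block 2 named genes lost and 1 gained its call. The within-tissue deviations of same-numbered libraries correlated at -0.0715 over the genes tested. With 2 libraries a tissue, this value cannot settle whether equal numbers share an animal. For stomach against junction, leaving out a library gave 2069 to 7068 calls, and for gut against junction 6056 to 7395. No named gene turned direction. With 2 libraries a tissue, changes under 4-fold were often not called.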
